A study of Mus musculus with 24 samples.

Results

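The proteasome genes were the genes whose symbol begins with Psma, Psmb, Psmc, Psmd, Psme or Psmg followed by a digit. The rule found 48 of the 18193 genes that had a probe set assigned to them alone, and each was read from its probe set with the highest mean over all arrays. Of these, 46 encode parts of the proteasome, its activators or its assembly factors. The other 2, Psmc3ip, a factor of meiotic recombination, and Psme3ip1, a protein that binds an activator, match by symbol only. They are included in the counts over all proteasome genes and are described separately from the components. Psme2, a subunit of the activator PA28, is not among them, because its probe set also carries the symbol of a second gene.

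The proteasome is the protease that degrades most short-lived and damaged proteins of the cell after they have been tagged with ubiquitin. Its 20S core is a barrel of alpha and beta rings, and only some of the beta subunits carry an active site. The 19S particle on its ends has a base, whose ATPases unfold the substrate, and a lid, which removes the ubiquitin chain. In cells exposed to interferon the catalytic subunits are exchanged for immunoproteasome subunits, and in skeletal muscle the system is best known for the protein loss of atrophy.

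The cells were C2C12, a line of mouse myoblasts that fuse into myotubes when serum is withdrawn, so all samples share 1 cell line and no animals were compared. Total RNA was hybridised to 24 Affymetrix arrays, 3 for each of 8 time points. Day -1 cells were at 50% confluency and Day 0 cells at 90% confluency, both in growth medium with 10% serum. Day 0.25 (6 hours), Day 1, Day 2, Day 3, Day 4 and Day 5 cells had been in medium with serum reduced to 2% by the labels, and the study's own text gives another percentage. No other agent or genetic change separates the groups. The labels do not say that the 3 arrays of a time point came from separate cultures, and a p-value then covers no more than the spread among the arrays at hand.

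Values are intensities on a linear scale, set by the authors to a common trimmed mean of 150 on each array. A gene was tested where its mean reached 100 at 1 or more time points, which 43 of the 48 proteasome genes and 7906 of all genes did. Of the 43, 41 stayed above this level at every time point, while Psmg4 and Psmc3ip did not. Log2 differences are the later minus the earlier time point, and adjusted p-values come from limma with the Benjamini-Hochberg method over all probe sets tested, with a threshold of 0.05. The 8 muscle genes checked, such as Myog, Ckm and Myh3, were all higher on Day 5 than on Day -1, by a median of 4.65 on the log2 scale, and all 8 were already higher on Day 0 than on Day -1, by a median of 2.84. None of 6 leukocyte markers reached a mean of 100. Ptprc, which defines leukocytes, stayed between 2.01 and 2.06 at every time point, and Cd68, Adgre1, Itgam and Csf1r had means of at most 7.27. Cd14 alone was measurable, with means of 76.1, 69.5, 35.2, 40.2, 34.9, 24.8, 27.5 and 24.8 from Day -1 to Day 5, and its part in the results was not tested.

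Over the 8 time points most proteasome genes changed, and most by less than 2-fold. The F test found a change in 32 of the 43 (74.4%), where 89.4% of all genes tested passed. The highest of the 8 means exceeded the lowest by a median of 1.46-fold for proteasome genes and 1.87-fold for all genes. A range of at least 2-fold was reached by 5 proteasome genes (11.6%) against 43.7% of all genes. These 5 include Psmg4 and Psmc3ip, which did not stay above the filter level at every time point, and Psmc3ip is not a component. The median level was 2040 for the proteasome genes tested and 350 for all genes tested. Genes of equal level were not compared, so the part of level in these comparisons was not tested. The low points fell mostly on 2 days, since 17 genes had their lowest mean on Day 2 and 17 on Day 5, while 18 had their highest on Day 0 and 12 on Day -1. These days were not counted over all genes. Relative to Day -1, the median log2 difference of the proteasome genes at the later time points, in order from Day 0, was 0.03, -0.08, -0.13, -0.38, -0.22, -0.07 and -0.27. That of all genes tested stayed between -0.08 and 0.02. In RNA from whole cultures, fewer cells of a type and less RNA per cell cannot be told apart.

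**Figure D1:**
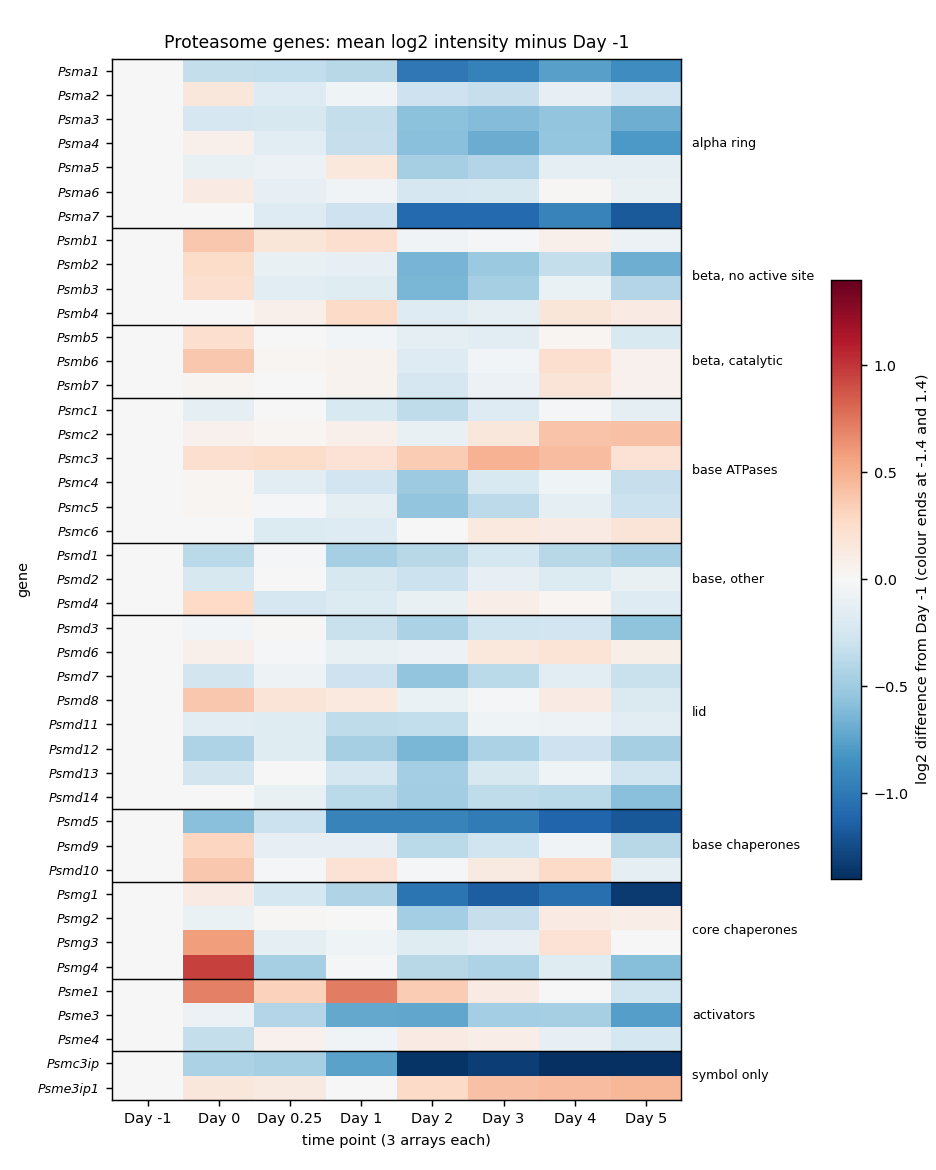
Mean log2 intensity of each of the 43 proteasome genes tested (vertical axis, grouped by role) at each time point (horizontal axis, 3 arrays each), minus its mean on Day -1. Blue is lower and red is higher than Day -1, and the darkest blue lies in Psma1, Psma7, Psmd5, Psmg1 and Psmc3ip from Day 2 on.

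On Day 5 against Day -1, 17 of the 43 proteasome genes were lower (39.5%, with 38.4% of all genes) and 4 were higher (9.3%, with 31.6% of all genes). The share that fell was thus near that of all genes. Without the 2 genes matched by symbol only, 16 of 41 were lower and 3 were higher. The falls included 4 subunits of the alpha ring and 5 of the lid, the rises 3 ATPases of the base, and none of the constitutive catalytic subunits passed. Leaving out any array of these time points gave 13 to 23 lower genes. The count of higher genes was 2 without Day 5 replicate 1.

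**Figure D2:**
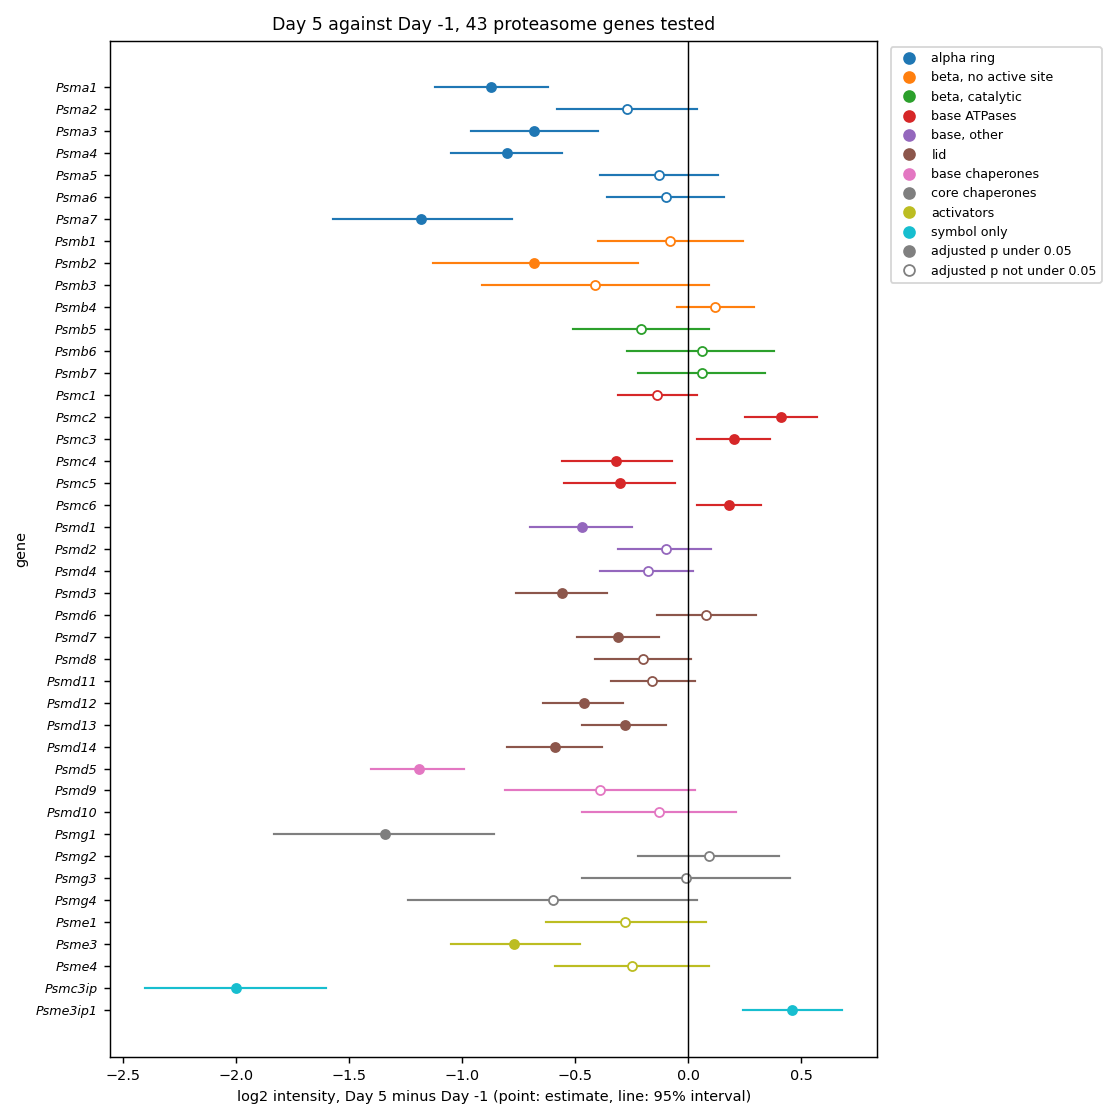
Log2 difference of Day 5 minus Day -1 (horizontal axis) for the 43 proteasome genes tested (vertical axis, coloured by role), with points for the estimate and lines for the 95% interval. Filled points passed an adjusted p of 0.05, 17 below 0 and 4 above it, and the 3 catalytic beta subunits have open points near 0.

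The alpha ring forms the gate of the core, and 4 of its 7 tested subunits fell on Day 5 against Day -1, where 38.4% of all genes did. Psma7, an alpha subunit, had intensities of 899, 803 and 1260 on the Day 5 arrays, against 2260, 1910 and 2430 on the Day -1 arrays. The Day 5 arrays all lay below the Day -1 arrays, with a log2 difference of -1.18 ± 0.19 (SE, adjusted p = 1.47e-05). Its means over the series were 2200, 2190, 1950, 1800, 1050, 1030, 1160 and 987 at the 8 time points in order, so the largest step between neighbouring time points came at Day 2. A second probe set of Psma7 gave -0.96 (adjusted p = 2.62e-05).

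Psma1, another alpha subunit, had 1910, 1770 and 2070 on Day 5, against 3430, 3070 and 4020 on Day -1, again with no overlap (log2 difference -0.87 ± 0.12, SE, adjusted p = 2.22e-06). Psma4 averaged 1450 ± 155 on Day 5 and 2540 ± 316 on Day -1 (SD, n = 3 each), and Psma3 averaged 2530 ± 365 on Day 5 and 4050 ± 320 on Day -1 (SD, n = 3 each). The arrays of the 2 days did not overlap for either gene. The remaining subunits lay closer to their starting level, with log2 differences of -0.27 for Psma2, -0.13 for Psma5 and -0.10 for Psma6, whose intervals all include 0. Psma5 is uncertain, since its second probe set gave -0.60 (adjusted p = 0.00184). The testis subunit Psma8 lay at the low end of the scale, between 2.14 and 2.28 on all arrays.

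The promoters of Psma1 and Psma7, the alpha subunits that fell both on Day 2 against Day 1 and on Day 5 against Day -1, hold the letters CCAAT, the core of the box bound by the factor NF-Y. They are printed for that reason, 5′ to 3′ on the gene's strand, from 250 bases before to 50 bases after the RefSeq start in build GRCm38.p6, with CCAAT or its reverse complement in capitals. The windows of Psma2, Psma3 and Psma6 hold these letters too, and of these only Psma3 passed on Day 5 against Day -1. Psma1 lies at chr7:114276067-114276366 on the minus strand and Psma7 at chr2:180042415-180042714 on the minus strand.
Psma1: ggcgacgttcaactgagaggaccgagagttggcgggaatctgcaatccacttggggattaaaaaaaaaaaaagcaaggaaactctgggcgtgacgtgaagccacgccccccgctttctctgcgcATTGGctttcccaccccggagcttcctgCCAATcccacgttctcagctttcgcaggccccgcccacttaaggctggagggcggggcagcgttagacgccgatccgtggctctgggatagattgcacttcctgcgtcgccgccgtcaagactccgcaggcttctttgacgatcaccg
Psma7: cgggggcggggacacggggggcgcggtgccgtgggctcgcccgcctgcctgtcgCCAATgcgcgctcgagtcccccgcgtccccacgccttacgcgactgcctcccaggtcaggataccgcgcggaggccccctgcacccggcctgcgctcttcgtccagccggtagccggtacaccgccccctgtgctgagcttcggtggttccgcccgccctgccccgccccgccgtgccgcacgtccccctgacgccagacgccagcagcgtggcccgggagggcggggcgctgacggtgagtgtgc
RefSeq promoter windows were matched for 40 of the 48 proteasome genes, 43 windows in all. CCAAT was found on either strand in 16 of these 43 windows (37.2%) and in 37.4% of all 32851 windows of this length, so its share among proteasome genes was that of all promoters. GGGCGG, the core of the GC box, was found in 23 of the 43 (53.5%) and in 35.7% of all windows. A match describes the letters only.

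The non-catalytic beta subunits complete the inner rings. Psmb2 was the member of this group that fell, with 619, 521 and 932 on Day 5, against 1190, 857 and 1210 on Day -1 (log2 difference -0.68 ± 0.22, SE, adjusted p = 0.00935). Day 5 replicate 3 lay above the lowest Day -1 array, and without Day 5 replicate 2 the adjusted p was 0.0661. Psmb1, Psmb3 and Psmb4 differed by -0.08, -0.41 and 0.12 and did not pass. Psmb3 is uncertain, since its second probe set gave -0.62 (adjusted p = 0.0144). Psmb4 averaged 4810 ± 378 on Day 5 and 4430 ± 198 on Day -1 (SD, n = 3 each), but its other probe set was lower by 0.47 (log2 difference -0.47, adjusted p = 0.00324), so its direction is not settled.

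The constitutive catalytic subunits showed no change that passed. Psmb5 carries the chymotrypsin-like, Psmb6 the caspase-like and Psmb7 the trypsin-like activity. None of the 3 passed the F test, with adjusted p-values of 0.124, 0.0631 and 0.193. Psmb5 had 1890, 1680 and 2250 on Day 5, against 2420, 1930 and 2360 on Day -1, a log2 difference of -0.21 with a 95% interval of -0.51 to 0.09. Psmb6 had 2320, 1920 and 2750 on Day 5, against 2480, 1850 and 2360 on Day -1, a log2 difference of 0.06 with an interval of -0.27 to 0.38. Psmb7 had 3560, 3400 and 4040 on Day 5, against 3970, 3130 and 3480 on Day -1, a log2 difference of 0.06 with an interval of -0.22 to 0.34. The arrays of the 2 days overlapped for each of these genes. Psmb6 had its highest mean, 2880, on Day 0, and Psmb7 its highest, 4000, on Day 4.

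Nfe2l1 and Nfe2l2 encode factors that bind antioxidant response elements, and Nfe2l1 is known to drive proteasome genes when the protease is inhibited. The core of this element, TGACNNNGC, was therefore searched on both strands. It was found in 6 of the 43 proteasome windows (14%) and in 12.4% of all windows, near the share of all promoters. The 6 genes were Psmb5, Psmb6, Psmc6, Psmd9, Psmd12 and Psme4. The windows of 3 are shown because they include catalytic subunits and a lid subunit described here, with the match in capitals. Psmb5 lies at chr14:54617946-54618245 on the minus strand, Psmb6 at chr11:70525107-70525406 on the plus strand and Psmd12 at chr11:107479278-107479577 on the plus strand.
Psmb5: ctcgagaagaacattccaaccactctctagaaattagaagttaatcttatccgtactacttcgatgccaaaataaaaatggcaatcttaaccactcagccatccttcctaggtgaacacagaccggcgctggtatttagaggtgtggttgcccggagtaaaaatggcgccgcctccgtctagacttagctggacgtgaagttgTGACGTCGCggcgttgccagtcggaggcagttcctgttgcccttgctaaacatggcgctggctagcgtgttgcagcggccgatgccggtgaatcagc
Psmb6: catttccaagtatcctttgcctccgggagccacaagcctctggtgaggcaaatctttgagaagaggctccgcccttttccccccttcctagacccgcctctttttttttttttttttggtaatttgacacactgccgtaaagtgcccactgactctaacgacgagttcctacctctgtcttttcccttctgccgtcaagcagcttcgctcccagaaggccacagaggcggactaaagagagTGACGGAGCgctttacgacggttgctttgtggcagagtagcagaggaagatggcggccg
Psmd12: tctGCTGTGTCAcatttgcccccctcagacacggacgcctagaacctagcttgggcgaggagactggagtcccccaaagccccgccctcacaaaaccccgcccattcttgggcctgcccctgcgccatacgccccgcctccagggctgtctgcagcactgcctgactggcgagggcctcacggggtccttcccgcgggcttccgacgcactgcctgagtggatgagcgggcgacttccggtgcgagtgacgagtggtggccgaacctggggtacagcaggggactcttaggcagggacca
In Psmb5 and Psmb6 the match lay on the gene's strand and started at bases 204 and 242 of the window, close to the transcription start. In Psmd12 it lay on the opposite strand and started at base 4, far upstream. On Day 5 against Day -1 the log2 differences of all 6 genes with a match were -0.21 for Psmb5, 0.06 for Psmb6, 0.18 for Psmc6, -0.39 for Psmd9, -0.46 for Psmd12 and -0.25 for Psme4. Psmc6 passed as higher and Psmd12 as lower, and differences between these genes were not tested.

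The immunoproteasome subunits were at or near the low end of the scale, so that none was tested. Psmb8, which replaces Psmb5, lay between 4.29 and 5.55 on the 24 arrays, and Psmb9, which replaces Psmb6, between 2.07 and 2.15. Psmb11, the subunit of the thymus, lay between 2.36 and 2.44. Psmb10, which replaces Psmb7, was measurable, with means of 55.9, 77.7, 74.4, 80.9, 81.5, 76.2, 63.7 and 49.9 at the 8 time points in order. Only Day 2 replicate 2, at 105, exceeded 100, and Day 5 replicate 2, at 39.3, was the lowest array. Psmb10 thus had its highest means in the middle of the series.

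Psmb10 was also set against Psmb7 on the same array, where a difference of log2 intensities shows unequal change and not relative abundance. Psmb10 minus Psmb7 was -5.26, -5.14 and -5.28 on Day 2, against -5.46, -5.40 and -5.65 on Day 1. All Day 2 arrays were higher, by a mean of 0.28, and a two-sided exact permutation test gave p = 0.1, the smallest that 3 arrays against 3 can give. On Day 5 it was -6.13, -6.43 and -6.09, against -6.05, -5.98 and -5.90 on Day -1, a difference of -0.24 with exact p = 0.1. Adjusting over these 2 comparisons leaves both at 0.1. After quantile normalization the differences were 0.10 and -0.15, each with exact p = 0.5.

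**Figure D3:**
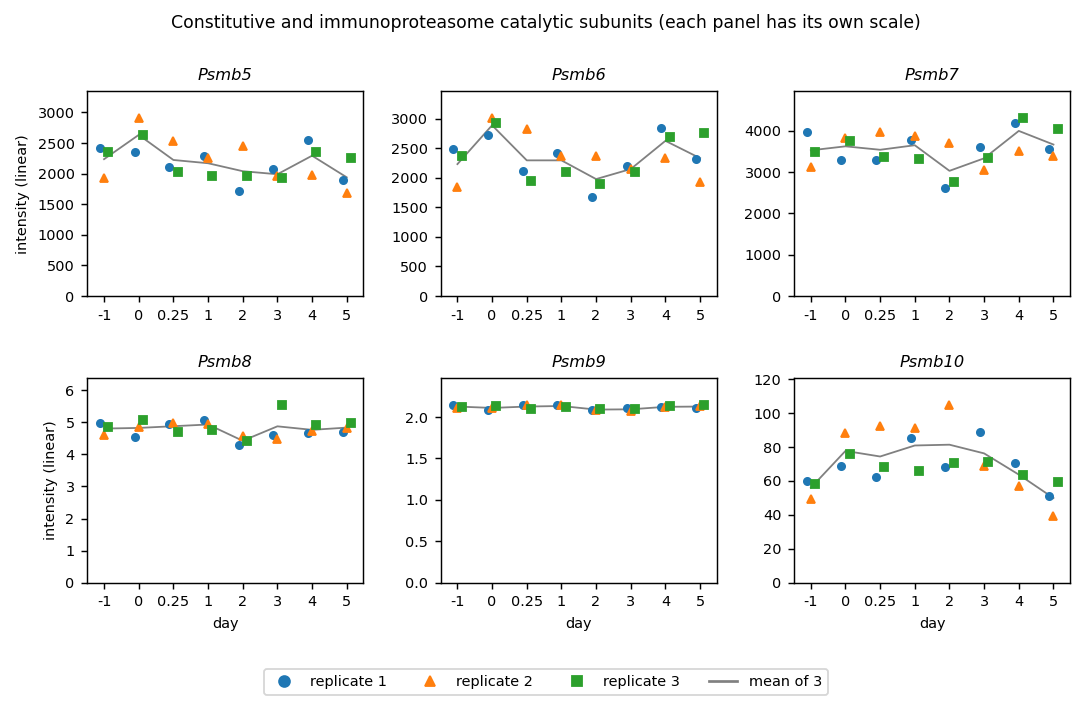
Intensity on a linear scale (vertical axis, each panel on its own) of Psmb5, Psmb6 and Psmb7 and of the immunoproteasome subunits that replace them, Psmb8, Psmb9 and Psmb10, on every array by day (horizontal axis). Symbols mark the 3 replicates and lines join the means; Psmb8 and Psmb9 stay under 6 throughout, and Psmb10 is highest on Day 1 and Day 2.

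The 6 ATPases of the base form the ring that pulls the substrate into the core. All 6 passed the F test, and they split by direction on Day 5 against Day -1. Psmc2 had 5330, 4620 and 5200 on Day 5, against 3820, 3630 and 3910 on Day -1, with every Day 5 array above every Day -1 array (log2 difference 0.41 ± 0.08, SE, adjusted p = 8.12e-05). Its means up to Day 2 lay between 3540 and 3990, followed by means of 4220, 5000 and 5050 on Day 3, Day 4 and Day 5. Its second probe set gave only 0.13 (adjusted p = 0.154). Psmc3 rose by 0.20 (adjusted p = 0.0286), with its lowest mean, 2340, on Day -1 and its highest, 3290, on Day 3. Psmc6 rose by 0.18 (adjusted p = 0.0187), and its other probe sets gave 0.77 and 1.09.

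Psmc4 and Psmc5 fell. Psmc4 averaged 1550 ± 204 on Day 5 and 1930 ± 212 on Day -1 (SD, n = 3 each), a log2 difference of -0.32 (adjusted p = 0.0216). Its second probe set gave 0.18, in the other direction. Psmc5 averaged 1660 ± 204 on Day 5 and 2040 ± 245 on Day -1 (SD, n = 3 each), a log2 difference of -0.30 (adjusted p = 0.0287). Both missed the threshold when Day 5 replicate 2, Day -1 replicate 1 or Day -1 replicate 3 was left out, with adjusted p-values of 0.145, 0.0863 and 0.0767 for Psmc4 and 0.159, 0.108 and 0.104 for Psmc5. Psmc1 differed by -0.14 and did not pass.

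Psmd1 and Psmd2 are the scaffolds of the base, and Psmd4 is a ubiquitin receptor. Psmd1 had 2090, 1960 and 1540 on Day 5, against 2430, 2890 and 2410 on Day -1, with no overlap (log2 difference -0.47 ± 0.11, SE, adjusted p = 0.000516). Psmd2 averaged 2090 ± 219 on Day 5 and 2250 ± 203 on Day -1 (SD, n = 3 each), missing the threshold with a log2 difference of -0.10. Psmd4 differed by -0.18 and did not pass either.

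In the lid, 5 of 8 subunits fell on Day 5 against Day -1 and none rose, beside 38.4% lower and 31.6% higher among all genes. Psmd14 is the deubiquitinase that cuts the chain from the substrate. It had 2040, 1700 and 2060 on Day 5, against 2900, 2720 and 3070 on Day -1, with a clear gap between the days (log2 difference -0.59 ± 0.10, SE, adjusted p = 3.58e-05). Psmd7, its partner in the lid, fell by 0.31 on the log2 scale. Psmd3, Psmd12 and Psmd13 fell by 0.56, 0.46 and 0.28. A dimmer probe set of Psmd13 gave -0.12 (adjusted p = 0.219). Psmd11 differed by -0.16 and did not pass, while its other tested probe sets gave 0, -0.47 (adjusted p = 3.92e-05) and -0.18. The count of lid subunits that fell thus depends on the probe set. Psmd6 had the smallest range of the 43 genes tested, its highest mean being 1.23-fold its lowest. It averaged 2690 ± 159 on Day 5 and 2550 ± 291 on Day -1 (SD, n = 3 each), while a dimmer probe set of Psmd6 gave 0.63 (adjusted p = 2.64e-05).

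The 2 largest falls among proteasome components on Day 5 against Day -1 were assembly chaperones. The alpha subunit Psma7 followed closely at -1.18, and the order of these genes was not tested. Psmd5, a chaperone of the base, had 452, 365 and 413 on Day 5, against 945, 868 and 991 on Day -1, so that all Day 5 arrays lay far below (log2 difference -1.19 ± 0.10, SE, adjusted p = 1.13e-09). Its means were 935, 620, 757, 491, 491, 474, 432 and 410 from Day -1 to Day 5, and most of the fall had thus taken place by Day 1. Psmd10, also known as gankyrin, averaged 361 ± 62 on Day 5 and 395 ± 59.2 on Day -1 (SD, n = 3 each), and Psmd9 differed by -0.39, neither passing.

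Psmg1, which pairs with Psmg2 to start the alpha ring, had 161, 136 and 213 on Day 5, against 495, 327 and 468 on Day -1, with no overlap (log2 difference -1.34 ± 0.23, SE, adjusted p = 3.42e-05). Psmg2 averaged 1110 ± 232 on Day 5 and 1040 ± 140 on Day -1 (SD, n = 3 each), a log2 difference of 0.09 with an interval of -0.22 to 0.40. These partners therefore differed in what was measured, although the difference between them was not tested. Psmg3 differed by -0.01. Psmg4 averaged 61.3 ± 22.3 on Day 5 and 92.1 ± 28.3 on Day -1 (SD, n = 3 each), missing the threshold, but it passed without Day -1 replicate 2 (adjusted p = 0.0329) or without Day 5 replicate 3 (adjusted p = 0.0195).

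Of the activators, Psme3 forms the nuclear cap PA28 gamma, and it fell. It had 269, 219 and 292 on Day 5, against 495, 344 and 500 on Day -1 (log2 difference -0.77 ± 0.14, SE, adjusted p = 4.78e-05), and a second probe set gave -0.72. Psme4, which encodes PA200, averaged 1210 ± 149 on Day 5 and 1450 ± 225 on Day -1 (SD, n = 3 each), missing the threshold. Psme1, the alpha subunit of the interferon-inducible cap PA28, differed by -0.28 and did not pass, but it moved in between. Its means were 623, 1010, 779, 1020, 808, 673, 626 and 520 from Day -1 to Day 5, highest on Day 0 and Day 1. The lower mean on Day 0.25 did not pass against Day 0 (adjusted p = 0.0682), nor did Day 1 against Day 0.25 (adjusted p = 0.0804).

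Among the genes matched by symbol only, Psmc3ip had 63, 54.9 and 61 on Day 5, against 266, 187 and 272 on Day -1, a log2 difference of -2.0 ± 0.19 (SE, adjusted p = 1.32e-08) and the widest range of the 48. Psme3ip1 averaged 499 ± 74.7 on Day 5 and 362 ± 46.3 on Day -1 (SD, n = 3 each) and rose by 0.46. Neither is a proteasome component.

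**Figure D4:**
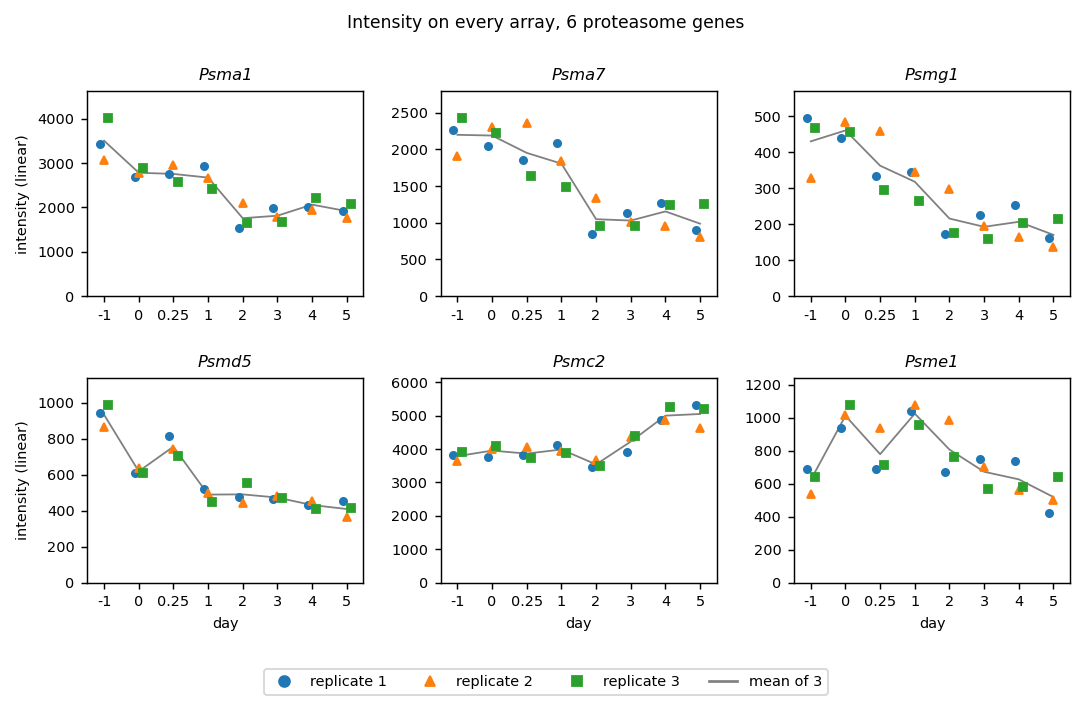
Intensity on a linear scale (vertical axis) of Psma1, Psma7, Psmg1, Psmd5, Psmc2 and Psme1 on every array by day (horizontal axis). Symbols mark the 3 replicates and lines join the means, showing the low Day 2 to Day 5 arrays of Psma1 and Psma7, the early fall of Psmd5, the late rise of Psmc2 and the highest means of Psme1 on Day 0 and Day 1.

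The early steps, before and just after serum was reduced, set confluent against sparser cells and then reduced against full serum, and neighbouring steps share the arrays of the day between them. On Day 0 against Day -1, 7 proteasome genes were higher (25.2% of all genes were) and 6 were lower (21.5% of all genes were). The largest rises were Psmg4 at 0.96, Psme1 at 0.71 and Psmg3 at 0.58, and Psmb1, Psmc3, Psmd4 and Psmd8 rose by 0.38, 0.23, 0.28 and 0.38. The largest fall was Psmd5 at -0.59 (adjusted p = 6.71e-05), and Psma1, Psmd1, Psmd7, Psmd12 and Psmd13 fell by 0.33, 0.38, 0.26, 0.43 and 0.26. The muscle genes moved in the same step, as Myog averaged 2620 on Day 0 and 404 on Day -1, so that confluence and the onset of the muscle program cannot be told apart here. The higher genes numbered 2 without Day -1 replicate 2 or without Day 0 replicate 2 and 3 without Day 0 replicate 3, and the lower genes numbered 3 without Day -1 replicate 3.

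Psmg4, a chaperone of the core, had 132, 204 and 194 on Day 0, against 121, 65 and 89.9 on Day -1. Day 0 is the time point through which Psmg4 passed the level filter, so its rise there and its fall on Day 0.25 are partly fixed by the filter and support nothing. Psme1 had 937, 1020 and 1080 on Day 0, against 692, 536 and 643 on Day -1, with all Day 0 arrays higher (adjusted p = 0.00221).

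On Day 0.25 against Day 0, 4 proteasome genes were higher (21.5% of all genes were) and 4 were lower (23.6% of all genes were). The rises were Psmd1 at 0.37, Psmd5 at 0.29, Psmd12 at 0.26 and Psmd13 at 0.25, all of which had been lower on Day 0 than on Day -1. The falls were Psmg3 at -0.71, Psmd4 at -0.51, Psmc6 at -0.20 and Psmg4, which was tested through its Day 0 level alone. Since both steps use the Day 0 arrays, a deviation of those arrays would give opposite signs in the 2 steps. Without Day 0.25 replicate 2, whose proteasome values were high, 11 genes were lower. The higher genes numbered 1 without Day 0.25 replicate 1 and 2 without Day 0 replicate 1 or 3, and the lower genes 2 without Day 0.25 replicate 1 or 3.

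On Day 1 against Day 0.25, no proteasome gene was higher (12.3% of all genes were), with 2 at an unadjusted p under 0.05, and 5 were lower (14.1% of all genes were). Psmd5 had 523, 499 and 449 on Day 1, against 818, 746 and 707 on Day 0.25, a log2 difference of -0.63 (adjusted p = 0.000108). The others were the base scaffold Psmd1 at -0.45 and the lid subunits Psmd3, Psmd12 and Psmd14 at -0.33, -0.30 and -0.28. Psmd14 lay just inside the threshold (adjusted p = 0.0468). It missed the threshold on the arrays of these time points alone (0.0979), with no level filter (0.0763) and with the replicate block (0.066). Leaving out Day 0.25 replicate 1 or 2, or Day 1 replicate 2 or 3, also ended the call (0.115, 0.142, 0.106 and 0.164). The lower genes numbered 2 without Day 0.25 replicate 1 or without Day 1 replicate 3, and 1 gene was higher without Day 0.25 replicate 2.

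Day 2 against Day 1 is the step the study analysed for its motifs, and it was tested on its own 6 arrays with 42 proteasome genes and 7383 genes in all. No proteasome gene was higher (19.6% of all genes were), with 1 at an unadjusted p under 0.05, and 7 were lower (16.7%, with 16.8% of all genes). The 7 were the alpha subunits Psma1, Psma5 and Psma7 at -0.61, -0.61 and -0.80, the beta subunit Psmb4 at -0.44, the ATPase Psmc5 at -0.42, the chaperone Psmg2 at -0.48 and Psmc3ip at -0.62. Psmc3ip averaged 143 on Day 1 and 93.8 on Day 2, so it was tested through its Day 1 level alone. Its fall is partly fixed by the filter and supports nothing. Without the genes matched by symbol only, 6 of 40 were lower. Second probe sets of Psma7 and Psmc3ip also passed, at -0.83 and -1.34, the latter with a mean of only 112 over all arrays. Those of Psma5, Psmb4 and Psmg2 did not pass, at -0.40, -0.15 and -0.35. Dimmer probe sets of Psmc4, Psmc6 and Psmd6, which are not among the 7, passed as lower at -0.65, -0.51 and -0.56. A further probe set of Psmc6 gave -0.11 and did not pass. Psma7 had 845, 1340 and 960 on Day 2, against 2090, 1840 and 1490 on Day 1 (adjusted p = 0.0189). Psma1 had 1540, 2090 and 1640 on Day 2, against 2940, 2660 and 2420 on Day 1 (adjusted p = 0.0155). The arrays of the 2 days did not overlap for either gene, though Day 2 replicate 2 was the highest of its day for both.

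The count of lower genes depended on single arrays. The mean log2 intensity of the tested proteasome genes was 9.98, 10.31 and 10.08 on the Day 2 arrays, against 10.42, 10.38 and 10.23 on the Day 1 arrays. Without Day 2 replicate 2, 24 proteasome genes were lower and 2 higher on Day 2. Without Day 1 replicate 1 or 2 the count of lower genes was 0, without Day 2 replicate 1 it was 1, and without Day 2 replicate 3 it was 2. Over all 24 arrays this mean ran from 9.98 to 10.61, whereas the mean of all probe sets tested ran from 8.31 to 8.48. The latter covers far more probe sets, on arrays scaled to a common trimmed mean, and other groups of genes were not compared. By the proteasome mean, Day -1 replicate 2, at 10.34, and Day 0.25 replicate 2, at 10.56, also stood apart from the other arrays of their days. The 3′ minus 5′ difference of the Gapdh control probe sets, a sign of RNA quality, was -0.41, -0.38 and -0.44 on the Day 2 arrays and lay between -0.48 and -0.34 on all 24. That of Actb was 0.30, 0.23 and 0.30 on the Day 2 arrays, against 0.25, 0.32 and 0.26 on the Day 1 arrays, and lay between 0.18 and 0.34 on all 24. On Day 2 the Actb difference was lowest, and the Gapdh difference highest, on replicate 2, the array with the highest proteasome mean. On Day 5 the Actb difference was 0.33, 0.34 and 0.27 with proteasome means of 10.15, 10.01 and 10.30. The lowest again lay on the array with the highest mean, where the Gapdh difference was highest (-0.48, -0.48 and -0.40). On Day 4 replicate 2 had the highest Actb difference (0.28) and the lowest proteasome mean (10.23). On Day 0 and Day 1 the lowest Actb difference also lay on the array with the highest mean. It did not on Day -1, Day 0.25 or Day 3. The highest Gapdh difference lay on the array with the highest mean on Day 0, Day 0.25 and Day 3 too. It did not on Day -1 or Day 1. The part of RNA quality in these values was not tested.

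**Figure D5:**
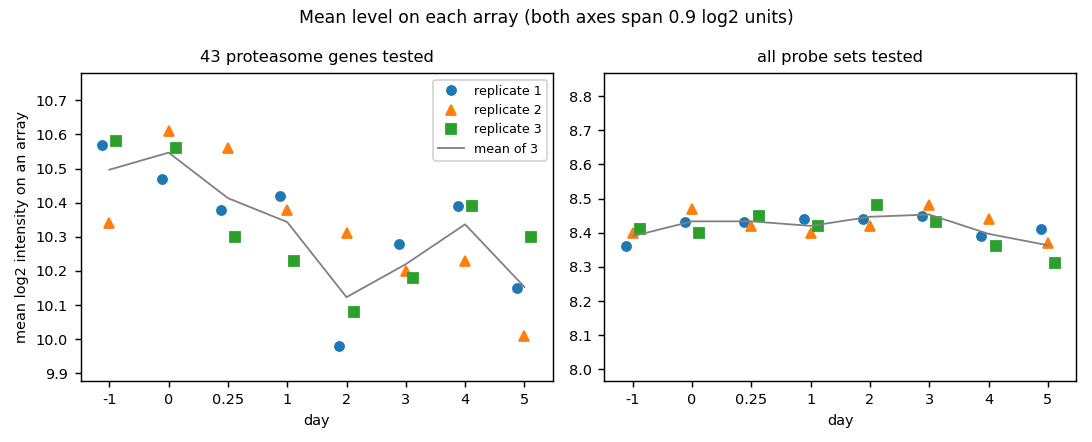
Mean log2 intensity on each array (vertical axes, of equal span) of the 43 proteasome genes tested (left) and of all probe sets tested (right) by day (horizontal axis), with symbols for the 3 replicates and lines through the means. The proteasome mean spreads within a day, as from 9.98 to 10.31 on Day 2. The mean of all probe sets, on arrays scaled to a common trimmed mean, stays between 8.31 and 8.48.

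After Day 2 few genes of any kind passed between neighbouring days. On Day 3 against Day 2 no proteasome gene passed in either direction (3.21% of all genes were higher and 3.29% lower), with 7 higher and 0 lower at an unadjusted p under 0.05. On Day 4 against Day 3 the count was again 0 (0.316% of all genes were higher and 0.683% lower), with 5 higher and 0 lower at an unadjusted p under 0.05. On Day 5 against Day 4 it was 0 (1.42% of all genes were higher and 2.29% lower), with 0 higher and 11 lower at an unadjusted p under 0.05. Without Day 3 replicate 1, 1 gene was higher on Day 3, and 2 genes were lower on Day 5 without Day 5 replicate 1 and 1 without Day 5 replicate 3.

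Over the last 4 time points, on Day 5 against Day 2, 6 proteasome genes were higher (14%, with 12.5% of all genes) and 3 were lower (6.98%, with 21.5% of all genes). Fitted on the 6 arrays of these days alone, the counts were 1 and 0. Psmg2 had 998, 960 and 1380 on Day 5, against 676, 856 and 698 on Day 2, with every Day 5 array higher (log2 difference 0.57, adjusted p = 0.0054, or 0.0748 in the fit of 6 arrays). Psmc2 rose by 0.51 (adjusted p = 3.52e-05), and Psma5, Psmb4, Psmd7 and Psmc6 rose by 0.33, 0.30, 0.24 and 0.18. Psme1 had 420, 500 and 638 on Day 5, against 670, 987 and 765 on Day 2, and fell by 0.64 (adjusted p = 0.00621). Psmc3ip and Psmd5 fell by 0.63 and 0.26. In the fit of 6 arrays the adjusted p was 0.169 for Psmb4 and 0.273 for Psmd5, and Psmd5 also missed the threshold with the replicate block and with no level filter (0.0521 in each). The higher genes numbered 3 without Day 2 replicate 1, and the lower genes 1 without Day 5 replicate 2.

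Genes that work with the proteasome but fall outside the symbol rule were read from a list of 27, of which 18 had a probe set assigned to them alone, and all 18 were tested. On Day 5 against Day -1, 3 were higher and 6 lower, where 31.6% of all genes were higher and 38.4% lower, and the median log2 difference was -0.12 where all genes had -0.08. Nfe2l1, the factor named above, had 2830, 2580 and 2150 on Day 5, against 541, 619 and 460 on Day -1, and every Day 5 array was above every Day -1 array (log2 difference 2.22 ± 0.14, SE, adjusted p = 3.69e-11). Its means of 540, 1340, 550, 842, 1850, 2560, 2530 and 2520 from Day -1 to Day 5 show a peak on Day 0, a return on Day 0.25 and a plateau from Day 3.

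Zfand5, which is known to stimulate the protease and is a gene of muscle atrophy in mice, rose by 0.98 (adjusted p = 2.36e-08), with 4430, 4410 and 3670 on Day 5, against 1900, 2300 and 2150 on Day -1. Uba6, a ubiquitin-activating enzyme, had 252, 260 and 334 on Day 5, against 815, 672 and 754 on Day -1 (log2 difference -1.41, adjusted p = 1.06e-07). Uchl5, a deubiquitinase that docks on the base, averaged 566 on Day 5 and 1150 on Day -1 (log2 difference -1.03, adjusted p = 6.08e-07). Usp14, the other deubiquitinase of the base, fell by 0.66. Pomp, the maturation factor of the core, averaged 1330 on Day 5 and 1540 on Day -1, missing the threshold.

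Of 12 genes of antigen processing, the pathway that the immunoproteasome serves, 11 had a probe set of their own and 7 were tested. On Day 5 against Day -1, 1 was higher and 2 were lower, few genes to set beside the 31.6% higher and 38.4% lower of all genes. H2-D1, a class I heavy chain, had 1760, 2340 and 2010 on Day 5, against 1210, 1090 and 1200 on Day -1 (log2 difference 0.79, adjusted p = 8.54e-06). H2-K1, another heavy chain, had 29.9, 16.1 and 35.6 on Day 5, against 80.7, 58.3 and 89.4 on Day -1 (log2 difference -1.54, adjusted p = 1.29e-05). These chains are near-identical in parts of their sequence, so their probe sets may share RNA. Pdia3, a chaperone of peptide loading, fell by 0.32. Tap1, the peptide transporter, lay between 2.60 and 2.69 at every time point, at the low end of the scale like Psmb8 and Psmb9.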

How the data were processed

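Per the labels and the study's methods, RNA of C2C12 cells was hybridised to Affymetrix mouse arrays. The authors deposited 1 table of intensity values, computed with GC-RMA, taken out of the log scale and brought on each array to a trimmed mean (2%) of 150. GCRMA and MAS5 are both listed, with no role, among the tools in the submitters' processing notes. The 64 control probe sets were left out of all tests. Genes were named from the array's annotation, and the tests, but not the gene counts, include probe sets that carry no gene or more than 1.

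Log2 intensities were tested with limma 3.58.1 in R 4.3.3, checked beforehand on simulated data, in 1 fit of 24 arrays over the 13735 probe sets whose mean reached 100 at 1 or more time points. Day 2 against Day 1 was fitted on its 6 arrays over 12622 probe sets, with the moderated t and the level of the study's methods, which do not say which arrays entered a fit and which represent a gene by its most extreme t, here an alternative. Intervals are 95%. Alternatives changed the arrays, level filter, normalization, prior and probe set. The arrays' number limits the precision.

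Named genes were Psmb5 to Psmb10, the largest and smallest Day 5 difference and any direction opposite to the rest in each role, the 5 widest ranges, and, of the lists outside the rule, the 2 lowest adjusted p-values in each direction. Others were named after their values were seen. Members and lists were chosen with earlier results of these data known. Psmb8 and Psmb9 were not compared with the subunits they replace, since both lie at the low end of the scale.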

Additional observations from a re-analysis of the deposited data

How the results depend on the processing

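Of the log2 differences of named genes under settings that kept all arrays, 438 kept direction and side of the threshold, 18 lost the threshold, 8 gained it and 2 changed sign, and with an array left out these numbered 285, 42, 11 and 16. The 2 were Psmb4 on Day 5 against Day -1, -0.47 with the probe set of the highest absolute moderated t in place of 0.12, and Psmd6 on Day 2 against Day 1, -0.56 in place of 0.02. Over the arrays left out in turn, small differences changed sign on Day 5 against Day -1 for Psmb6 (-0.07 to 0.19), Psmb7 (-0.02 to 0.15), Psmd6 (-0.01 to 0.15) and Psmg2 (-0.08 to 0.18), and on Day 2 against Day 1 for Psmd5 (-0.09 to 0.07), Psme3 (-0.09 to 0.06), Psmb5 (-0.24 to 0.02) and Psmd6 (-0.08 to 0.09). The F test found 30 to 42 genes. Leaving out arrays in turn, the higher and lower genes numbered 2 to 7 and 3 to 7 on Day 0 against Day -1, 1 to 5 and 2 to 11 on Day 0.25 against Day 0, 0 to 1 and 2 to 6 on Day 1 against Day 0.25, 0 to 2 and 0 to 24 on Day 2 against Day 1, 3 to 7 and 1 to 4 on Day 5 against Day 2, and 2 to 4 and 13 to 23 on Day 5 against Day -1, while 0 to 1 were higher on Day 3 against Day 2 and 0 to 2 lower on Day 5 against Day 4. With other arrays in the fit, Day 2 against Day 1 had 2 higher and 11 lower genes in all 24 arrays, and fits of 6 arrays gave 1 higher and 0 lower on Day 5 against Day 2 and 2 higher on Day 5 against Day -1. With no level filter, 4 were higher on Day 0 against Day -1, 1 on Day 3 against Day 2, and 1 higher and 1 lower on Day 2 against Day 1. A level of at least 200 gave 1 higher on Day 3 against Day 2. Quantile normalization gave 1 higher on Day 1 against Day 0.25 and 3 on Day 5 against Day 2. An intensity trend in the prior gave 1 higher on Day 1 against Day 0.25, 2 on Day 3 against Day 2 and 1 on Day 4 against Day 3. With the probe set of the highest absolute moderated t, 1, 2 and 1 were higher on Day 3 against Day 2, Day 4 against Day 3 and Day 5 against Day 4, and 10 on Day 5 against Day 2. The replicate block gave 3 higher genes on Day 5 against Day 2, 10 lower on Day 2 against Day 1, and 17 lower and 4 higher on Day 5 against Day -1. The replicate numbers did not pair the arrays, since correlations of same-numbered deviations ran from -0.514 to 0.555, and 9 of 21 arrays were closest to their own number. The cause of these shifts was not tested.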
